A study of Mus musculus with 96 samples.

Results

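The acute phase and neutrophil genes are 36 mouse genes listed by name for their known roles, with no measured value in the rule. The list was chosen with earlier results of these data known, so shares of called members are not independent of them. All 36 were measured, of 18193 genes in all, each through its brightest single-symbol probe set. They comprise 17 secreted proteins of the hepatic acute phase response, 9 cytokines and regulators of that response, and 10 genes of neutrophils and other myeloid cells. The samples were liver RNA of CD-1 mice, an outbred stock, on 96 arrays. PB was fed to both sexes. Its doses were 0.15, 1.5, 15, 75 and 150 mg/kg-day beside an untreated dose of 0, exposure lasted for either 2 days or 7, and each of the 24 groups had 4 arrays. The labels do not expand PB, which in work on the receptor CAR commonly stands for phenobarbital, and they give no age. All groups were of this 1 stock and carried no other treatment in the labels. Dose units follow the design text; in the titles the same figures stand beside ppm.

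In the acute phase response, interleukin-6 and interleukin-1, released mainly by macrophages, act on hepatocytes through STAT3, C/EBP factors and NF-kB. Hepatocytes then secrete more serum amyloid A, orosomucoid, haptoglobin, fibrinogen and related proteins. Neutrophils enter inflamed liver along chemokine gradients and carry large amounts of the calcium-binding pair S100A8 and S100A9. In whole liver RNA, more cells of a type and more RNA per cell cannot be told apart.

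The results turn on a few reactants and on the S100a8 and S100a9 pair, so the sequences upstream of their transcription starts are shown for comparison between near copies. Each is the 250 bases before the start given by RefSeq for GRCm38.p6, on the strand of the gene, with matches to any of 4 motifs in capitals. The windows lie at chr7:46742981-46743230 (minus strand, Saa1), chr7:46751583-46751832 (plus, Saa2), chr4:63362199-63362448 (plus, Orm2), chr4:63355908-63356157 (plus, Orm3), chr3:90668821-90669070 (plus, S100a8) and chr3:90695722-90695971 (minus, S100a9). Those of Saa1 and Orm3 overlap the annotated span of the gene, and the other 4 end where it begins.
Saa1: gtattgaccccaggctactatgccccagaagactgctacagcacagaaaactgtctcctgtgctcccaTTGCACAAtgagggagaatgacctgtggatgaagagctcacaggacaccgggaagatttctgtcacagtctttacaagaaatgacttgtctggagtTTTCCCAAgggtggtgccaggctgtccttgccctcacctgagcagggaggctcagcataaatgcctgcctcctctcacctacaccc
Saa2: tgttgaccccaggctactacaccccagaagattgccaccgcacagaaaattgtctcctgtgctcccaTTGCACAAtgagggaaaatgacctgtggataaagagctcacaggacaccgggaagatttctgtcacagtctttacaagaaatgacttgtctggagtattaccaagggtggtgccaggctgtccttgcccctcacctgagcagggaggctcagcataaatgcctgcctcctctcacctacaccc
Orm2: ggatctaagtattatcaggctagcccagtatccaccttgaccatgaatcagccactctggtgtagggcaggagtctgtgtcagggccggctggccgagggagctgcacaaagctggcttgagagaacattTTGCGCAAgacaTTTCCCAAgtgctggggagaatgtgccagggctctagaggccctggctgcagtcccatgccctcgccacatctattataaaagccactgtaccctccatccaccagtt
Orm3: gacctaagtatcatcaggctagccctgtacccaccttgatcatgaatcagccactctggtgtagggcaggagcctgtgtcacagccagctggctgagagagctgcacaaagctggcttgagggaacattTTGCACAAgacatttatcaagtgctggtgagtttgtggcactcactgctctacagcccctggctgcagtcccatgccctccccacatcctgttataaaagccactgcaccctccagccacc
S100a8: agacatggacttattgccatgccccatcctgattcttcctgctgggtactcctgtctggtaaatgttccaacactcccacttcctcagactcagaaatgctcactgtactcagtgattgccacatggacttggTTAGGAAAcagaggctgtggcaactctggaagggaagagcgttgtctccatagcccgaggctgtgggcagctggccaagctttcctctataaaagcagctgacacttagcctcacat
S100a9: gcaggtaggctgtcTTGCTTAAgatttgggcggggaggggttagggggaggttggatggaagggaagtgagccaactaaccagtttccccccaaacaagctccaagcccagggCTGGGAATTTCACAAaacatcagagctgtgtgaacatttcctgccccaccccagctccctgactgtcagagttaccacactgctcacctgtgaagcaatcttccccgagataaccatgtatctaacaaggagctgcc
Capitals mark TTNNGNAA on either strand, a C/EBP motif, or, in S100a9, also CTGGGAA, an interleukin-6 element, which there adjoins a C/EBP match. Saa1 and Saa2 both held TTGCACAA, 182 to 175 and 183 to 176 bases before their starts, and Saa1 held a second match, TTTCCCAA, 86 to 79 bases before. Orm2 held TTTCCCAA 108 to 101 and TTGCGCAA 120 to 113 bases before its start where the neighbouring gene Orm3 held TTGCACAA 121 to 114 bases before. Over both strands, the C/EBP motif was in 21 of the 33 members with an entry and in 36.8% of 32851 promoters. The interleukin-6 element was in 7 of 33 and in 9.1% of all, and the STAT motif TTCNNNGAA in 6 and in 7.02%. The NF-kB motif, which is GGG, any 2 bases, TT, any base and CC, was in 3, Cxcl1, Il6 and Nfkbia, and in 4.11% of all. A match is a description of letters, and motifs can overlap.

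A pair of arrays went against their dose labels. Among males on day 2, the array labelled 15 mg/kg-day replicate 1 had Cyp2b10, the classic target of CAR, at 13.66 on the log2 scale, against 11.07 to 11.29 on the other 3 arrays of that label. The array labelled 75 mg/kg-day replicate 1 had it at 10.98, against 13.19 to 13.36. Both were kept under their labels, and the calls of males on day 2 at 15 and 75 and over all doses are also given without both. Array medians ran from 5.34 to 5.44 and the highest values from 14.86 to 14.97. Array number, 4 per group, limits the precision. The labels do not say if every array had its own mouse, so p-values measure the spread between these samples.

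Levels differed widely among the members. Hpx, the heme binder hemopexin, the fibrinogen chains Fga, Fgb and Fgg, the hemoglobin binder Hp and 6 others averaged 13 or more on the log2 scale over the 96 arrays, close to the top of the scale. At the other end, 9 members averaged below the lowest array median: Il6, Tnf, Chil1, Chil3, Ngp, Ltf, Cxcr2, Mpo and Elane, with Il6 lowest at 2.85. Array-to-array spread was large for 10 members, whose SD within groups exceeded that of 99% of genes. These were Saa1, Saa2, Saa3, Orm2, Orm3, Lcn2, Socs3, Cxcl1, S100a8 and S100a9. The within-group SD was 1.40 for Saa2, 1.21 for Lcn2, an iron-siderophore binder, and 1.05 each for Orm2 and S100a8. The median was 0.220 over the 36 members and 0.150 over all genes. Fgg, at 0.0634, was among the steadiest genes on the arrays.

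Few of the 36 genes passed the test at 150 mg/kg-day. A gene was called where limma's adjusted p, by Benjamini-Hochberg over all 18193 genes, was below 0.05, and "rose" and "fell" are used only of such genes. Females on day 2 had 1 call among 36 members, S100a8, against 5.46% of all genes. Among females on day 7, 5 were called (Orm2, Orm3, Crp and Chil1 rose and Elane fell), or 13.9%, against 2.45% of all genes. In males on day 2, Orm3 and Crp rose, 2 of 36 or 5.56%, against 4.9% of all genes. For males on day 7, Orm3, Crp, Il1b and S100a8 rose and Itih3 fell, 5 of 36 or 13.9%, against 3.04% of all genes. On day 2 these shares of members lay below and near the shares of all genes. The median log2 change of the 36 members in these 4 comparisons was -0.07, 0.16, 0.01 and 0.07, and that of all genes -0.03, -0.02, -0.02 and 0.00.

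Of the 16 comparisons at lower doses, 14 had 0 member calls by limma. In these, 0 to 14 members had an unadjusted p below 0.05, with 14 in females on day 7 at 75 and 9 in females on day 7 at 15. The share of all genes below that p was not computed. At 0.15 and 1.5, 0 to 0.0055% of all genes were called. At 15, the background was 0.022% in females on day 2, 0.022% in females on day 7, 0.0385% in males on day 2 and 0.011% in males on day 7, and at 75 it was 0.451% in females on day 2 and 0.764% in females on day 7. The other calls were Orm3 in males on day 2 at 75, where 0.44% of all genes were called, and Crp in males on day 7 at 75, where 0.247% were. Without the pair that went against its labels, males on day 2 at 75 had 2 member calls, Orm3 and Crp, and 0.715% of all genes were called, and at 15 there were 0 member calls and 0.0275% of all genes. Slopes over the 6 doses were called for 4 members in females on day 2, 5 in females on day 7, 4 in males on day 2 and 5 in males on day 7, or 11.1%, 13.9%, 11.1% and 13.9%, against 8.73%, 4.35%, 6.04% and 4.46% of all genes. Without the pair, males on day 2 had 5 member slopes, with Orm2 added, and 6.52% of all genes. Over all comparisons of a dose with dose 0 and the slopes over dose, 9 members were called at least once and 27 were not.

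**Figure D1:**
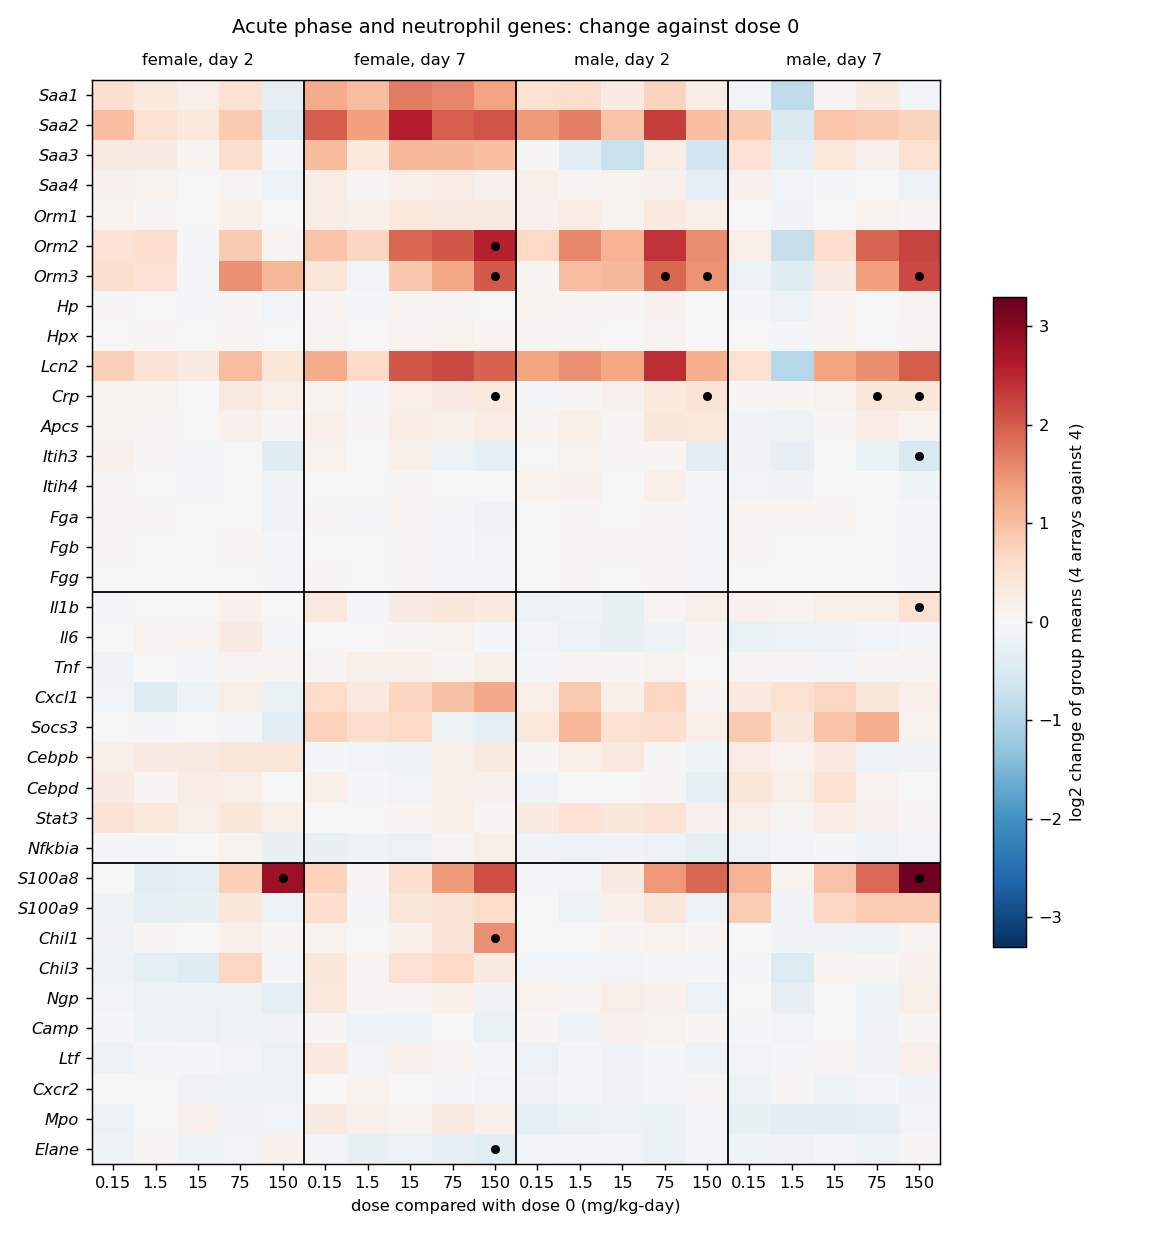
Log2 change of group means against dose 0 (colour) for each of the 36 genes (rows: reactants, then cytokines and regulators, then neutrophil and myeloid genes) at 5 doses in mg/kg-day in each sex and day (columns), with a dot where limma called the change. Of 15 dots, 13 lie at 150, and several strongly coloured rows such as Saa2 and Lcn2 carry no dot.

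Among the reactants, Orm2 and Orm3 had the largest called changes. Orm1, Orm2 and Orm3 encode alpha-1-acid glycoproteins, plasma carriers of basic drugs and steroids. They lie side by side on mouse chromosome 4 and are near copies, so probe sets may not separate them fully. In females on day 7, Orm3 read 8.26, 7.59, 8.55 and 8.12 at dose 0 and 10.10, 9.90, 11.01 and 9.65 at 150. Every treated array lay above every control, and the change was 2.03 ± 0.44 (SE; 4.08-fold higher; limma adjusted p = 0.00208). In males on day 7, Orm3 read 7.01, 6.50, 6.31 and 6.54 at dose 0 and 8.98, 9.73, 8.44 and 7.88 at 150, again without overlap, a change of 2.17 ± 0.44 (SE; 4.49-fold; limma adjusted p = 0.000650). Both calls held with each of the 8 arrays left out in turn.

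Orm3 in males on day 2 read 6.80, 6.87, 7.29 and 6.46 at dose 0, 7.36, 8.95, 10.03 and 8.72 at 75, and 8.32, 7.33, 9.29 and 8.46 at 150. All treated arrays lay above the controls, with replicate 2 at 150 and replicate 1 at 75 closest to them. The change at 150 was 1.49 (2.81-fold; limma adjusted p = 0.0286), a call kept only without control replicate 3 or replicate 2 at 150; left out in turn, the arrays gave 1.18 to 1.83. At 75 it was 1.90 (limma adjusted p = 0.0168), kept only without control replicate 2 or 3 or replicate 1 at 75, with 1.48 to 2.37; without the pair that went against its labels it was 2.37 (adjusted p = 0.000741). At 15, where no member was called, Orm3 differed by 1.06 with the pair and 0.78 without it, and Crp by 0.14 and 0.01. Females on day 2 had Orm3 at 9.06 to 10.65 with 150 and at 8.33 to 9.09 with dose 0, a difference of 1.09 that was not called (limma adjusted p = 0.159).

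Over all 6 doses Orm3 rose in every sex and day. Its slope, in log2 units per dose step with the doses ranked from 0 to 5, was 0.22 in females on day 2, 0.39 in females on day 7, 0.37 in males on day 2 and 0.46 in males on day 7 (limma adjusted p = 0.0432, 0.000155, 0.000272 and 7e-06). Without the doubted pair, the slope in males on day 2 was 0.40 (adjusted p = 3.77e-05). The day 2 slope of females was the least stable of the 4. Called in 10 of 24 fits with 1 array left out, it ranged from 0.18 to 0.26. It lost its call without replicate 1, 2 or 4 at 0, 1 or 2 at 0.15, 2 or 3 at 1.5, 1 or 4 at 15, 1 or 4 at 75, or 2, 3 or 4 at 150.

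Orm2 had a wider spread. In females on day 7 it read 9.52, 8.88, 10.56 and 9.86 at dose 0 and 12.81, 11.51, 13.50 and 11.29 at 150. The groups did not overlap, and Orm2 rose by 2.57 ± 0.72 (SE; 5.95-fold; limma adjusted p = 0.0334). That call ended without control replicate 1, 2 or 4 or replicate 1 or 3 at 150, down to 2.17 (adjusted p = 0.153) without replicate 3. For males on day 7 Orm2 read 9.26, 8.73, 9.09 and 7.91 at dose 0 and 11.49, 12.74, 10.33 and 9.38 at 150, also without overlap; the change of 2.24 was not called (limma adjusted p = 0.0715), but without replicate 4 at 150 it was 2.78 and called (adjusted p = 0.0252). Replicate 4 was the lowest of its group, so leaving it out had to enlarge the change, and that call adds no support. Slopes of Orm2 were called on day 7 in females and males, at 0.50 each (limma adjusted p = 0.00628 and 0.00502). Both were called in each fit with 1 of their 24 arrays left out. Without the doubted pair its slope in males on day 2, 0.35 (adjusted p = 0.0691), became 0.39 (adjusted p = 0.0411). Orm1, the brightest of the 3 with a mean of 13.79, was not called in any comparison, and at 150 its changes ran from 0.00 to 0.30.

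Crp (chr1:172698056-172699966 in GRCm38), C-reactive protein, a pentraxin that in mice is a minor reactant, rose by small and steady amounts. In males on day 2 it read 12.80, 12.72, 12.83 and 12.65 at dose 0 and 13.12, 13.18, 13.16 and 13.20 at 150, with no overlap, or 1.33-fold higher (limma adjusted p = 0.00067). Crp in males on day 7 lay between 12.75 and 12.87 at dose 0 and between 13.08 and 13.22 at 150, a change of 0.37 ± 0.09 (SE; limma adjusted p = 0.00393). Both calls held with any of the 8 arrays left out. Its range in females on day 7 was 12.80 to 13.08 at dose 0 and 13.14 to 13.40 at 150, a change of 0.32 (limma adjusted p = 0.0214) that was 0.27 (adjusted p = 0.120) without replicate 3 at 150 and also lost its call without control replicate 1 or 3.

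At 75 in males on day 7, Crp read 13.15, 13.25, 13.14 and 13.12, all above the controls, a rise of 0.38 (limma adjusted p = 0.0190). That call held only without control replicate 3 or replicate 3 or 4 at 75, with 0.35 to 0.41 over the 8 arrays left out. At 75 in males on day 2, Crp was not called (0.32; adjusted p = 0.0673), but it was without the doubted pair (0.37; adjusted p = 0.00985). Slopes of Crp were called in every sex and day: 0.04 in females on day 2, 0.07 in females on day 7, 0.09 in males on day 2 and 0.08 in males on day 7 (limma adjusted p = 0.0486, 0.0015, 2.51e-06 and 3.71e-05). The slope in males on day 2 was also 0.09 without the pair (adjusted p = 3.32e-07). As with Orm3, the slope of females on day 2 was called in few fits, 9 of 24 with 1 array left out, and ranged from 0.04 to 0.05. It ended without replicate 1, 2 or 3 at 0, 1 or 3 at 0.15, 1 or 3 at 1.5, 1, 2 or 4 at 15, 1 or 4 at 75, or 2, 3 or 4 at 150.

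**Figure D2:**
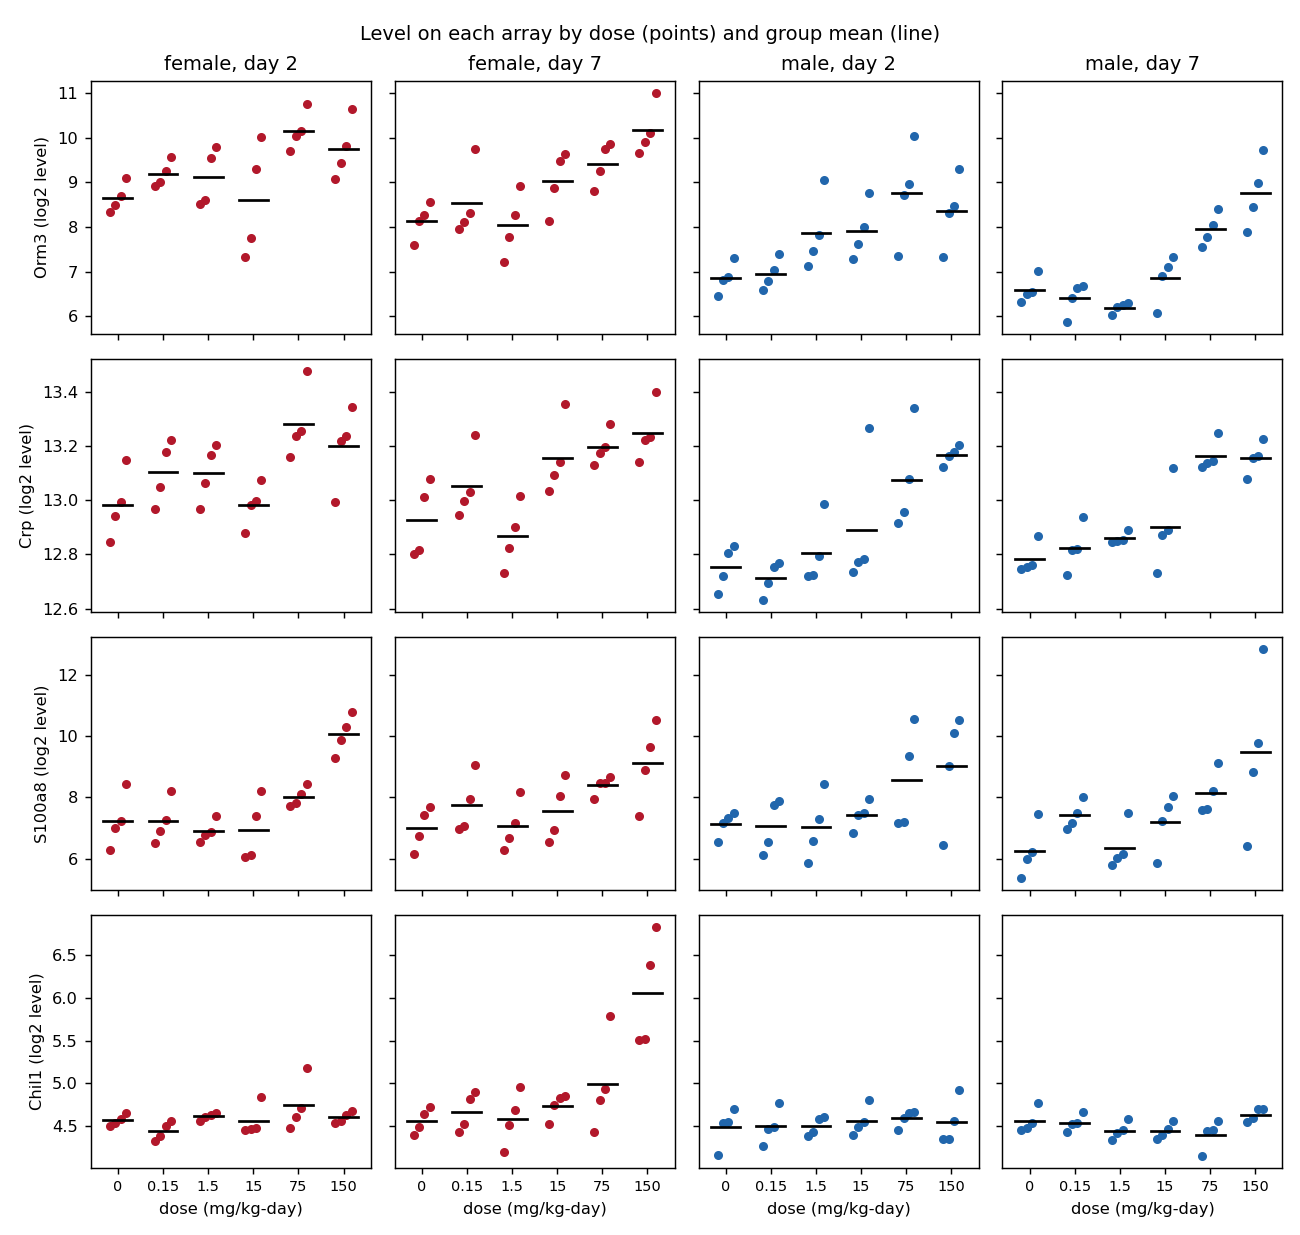
Log2 level on each array (points) and group mean (lines) against dose in mg/kg-day for Orm3, Crp, S100a8 and Chil1 in each sex and day. Orm3 and Crp stand higher at 75 and 150. Chil1 stands highest in females on day 7 at 150, where its 4 arrays read 5.51 to 6.83. A single array at 75 in the same sex and day reaches that range.

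Itih3 moved the other way. It encodes a heavy chain of the inter-alpha-trypsin inhibitors, which bind hyaluronan. The gene lies at chr14:30908572-30923787. In males on day 7 it read 13.32, 13.29, 13.23 and 13.21 at dose 0 and 12.72, 13.05, 12.53 and 12.70 at 150, and it fell by 0.51 on the log2 scale (1.43-fold lower; limma adjusted p = 0.0228). This call was kept only without control replicate 3 or 4 or replicate 2 at 150, with values from -0.61 to -0.44. The changes of Itih3 at 150 were -0.41 in females on day 2, -0.33 in females on day 7 and -0.39 in males on day 2 (limma adjusted p = 0.0754, 0.251 and 0.104). Each was called when the 1 array highest for Itih3 in its 150 group was left out: -0.57 without replicate 4, -0.52 without replicate 3 and -0.49 without replicate 3 (adjusted p = 0.00679, 0.0248 and 0.0377). Leaving out the highest array at 150 had to enlarge the fall, so these calls add no support to it. The arrays left out were also the highest of their groups for 17, 17 and 15 of the 17 reactants. The slope of Itih3 was called in females on day 2, -0.07 per step (limma adjusted p = 0.0369), but not without any of 7 arrays: control replicates 2, 3 and 4, replicate 2 at 0.15, replicate 4 at 75 or replicates 1 and 2 at 150. Itih4, a related protein cleaved in plasma, was not called.

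Apcs, serum amyloid P component, the main pentraxin reactant of mice, was called once, for its slope of 0.07 in males on day 2 (limma adjusted p = 0.0371; 0.0455 without the doubted pair). It was called in 16 of 24 fits with 1 array left out, with slopes of 0.06 to 0.08; the call ended without control replicate 2, 3 or 4, replicate 2 at 0.15, replicate 3 at 75 or replicate 1, 3 or 4 at 150. The haptoglobin, hemopexin and fibrinogen genes were not called, and the changes of Fga, Fgb and Fgg at 150 ran from -0.11 to -0.04. Their levels, up to 14.58 on single arrays, are near the top of the scale of these arrays.

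Serum amyloid A genes and Lcn2 had differences at 150 as large as those of Orm3 in some groups and were not called. Saa1 and Saa2 encode apolipoproteins of high-density lipoprotein that can rise steeply in inflammation, and their transcripts are near copies. In females on day 7, Saa2 read 8.83, 9.11, 10.26 and 9.53 at dose 0 and 11.65, 10.06, 14.25 and 10.09 at 150. The difference of 2.08 (limma adjusted p = 0.305) was 1.17 without replicate 3 at 150. Lcn2 in the same groups read 9.97, 8.32, 10.21 and 9.85 and then 10.74, 11.41, 13.31 and 10.70, a difference of 1.95 (limma adjusted p = 0.249) that was 1.36 without replicate 3. For males on day 7, the difference of Saa2 at 150, 0.74, became -0.12 without replicate 2, and that of Lcn2, 1.99, became 1.19. Saa3, made largely outside hepatocytes, and Saa4, a constitutive form, were not called in any dose comparison or slope.

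Serum amyloid A levels at dose 0 were not low in every group. In control females on day 2, Saa2 read 10.35, 12.62, 14.08 and 13.60, against 8.83 to 10.26 in control females on day 7. Control males lay between 10.51 and 12.43 on day 2 and between 10.17 and 11.05 on day 7. The 4 untreated females of day 2 thus spanned much of the range of Saa2 over all 96 arrays, 8.83 to 14.40.

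Array-to-array deviations were shared among the reactants. The deviation of Saa1 from its group mean was set against that of each of the other 35 members over the 96 arrays, with 100000 permutations within groups. Of 35 relations, 28 had a permutation p adjusted over the 35 below 0.05, all positive, with Pearson's r as with Spearman's rho. Pearson's r and Spearman's rho were 0.943 and 0.958 for Saa2, 0.867 and 0.864 for Orm2, 0.845 and 0.820 for Orm1, 0.833 and 0.810 for Lcn2 and 0.665 and 0.693 for Orm3. Each of these had a permutation p of 1e-05, the smallest the permutations can give, adjusted to 1.94e-05 for r and 2.33e-05 for rho; without the 2 arrays farthest from the median of Saa1, r was 0.944, 0.856, 0.836, 0.812 and 0.656. Because Saa1 and Saa2 are near copies, their relation may in part be shared signal. Values of 1 array share an RNA sample, a hybridization and a scan. Genes other than the members were not set against Saa1. The count of 28, and the counts by set below, thus have no share over all genes beside them and do not set the members apart.

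The relation to Saa1 had an adjusted permutation p below 0.05 for all 16 other reactants, 6 of 9 cytokines and regulators and 6 of 10 neutrophil and myeloid genes, with a median r of 0.714, 0.349 and 0.272. Among the closest outside the reactants were Stat3, which carries interleukin-6 signals (r = 0.536, rho = 0.503), Cxcl1, a neutrophil attractant (0.556, 0.535), and S100a9 (0.563, 0.544), each with a permutation p of 1e-05 for r (adjusted 1.94e-05) and of at most 3e-05 for rho. Crp, with r = 0.384 and rho = 0.371 (permutation p = 0.00036 and 0.00071), and S100a8, with 0.397 and 0.398 (0.00093 and 0.00076), had lower values. Pearson's r was 0.386 for Chil1, 0.301 for Chil3, 0.279 for Ltf, the lactoferrin gene, and 0.264 for Camp, which encodes cathelicidin (adjusted permutation p = 0.00151, 0.00741, 0.0082 and 0.0271). Within the 24 arrays of each sex and day, r of Saa2 ran from 0.951 to 0.986. In males on day 2, r was 0.030 for Fgb, 0.062 for Fgg, 0.109 for Crp and 0.114 for Fga. The other reactants had 0.565 (Orm3) or more there. Fga had 0.182 in females on day 7, so not every reactant followed Saa1 in every sex and day. The r of Stat3 was -0.062 in males on day 2 and 0.543 to 0.637 in the other groups. Its pooled value thus does not describe males on day 2. Cxcl1 had 0.257 in females on day 2 and 0.330 in males on day 2, against 0.676 and 0.712 on day 7. For Il1b, Il6, Tnf, Ngp, Cxcr2, Mpo and Elane the adjusted permutation p was 0.108 or more, and r ran from -0.053 to 0.214.

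**Figure D3:**
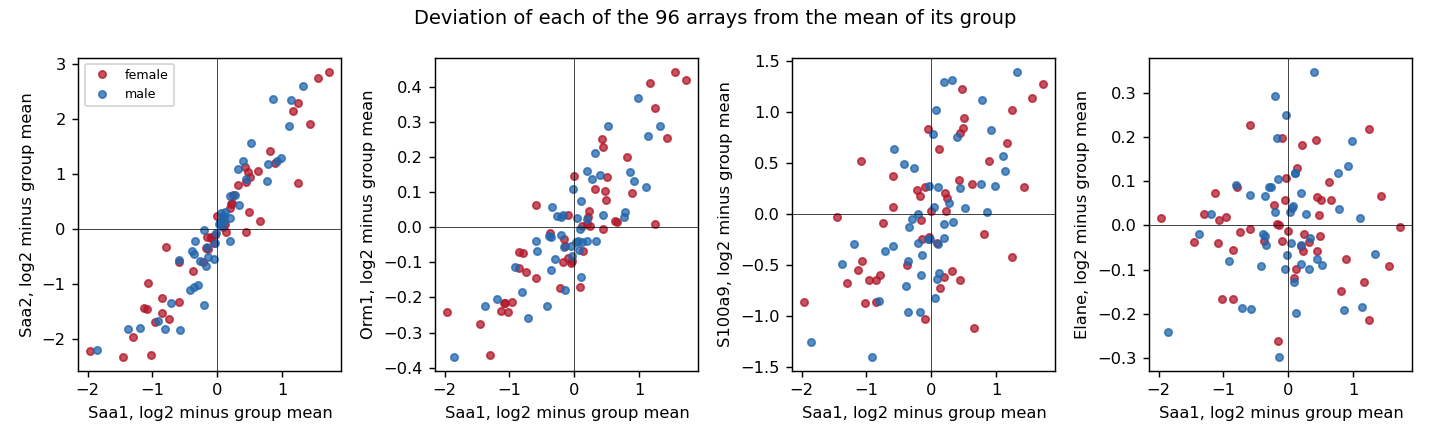
Deviation in log2 units of Saa2, Orm1, S100a9 and Elane (vertical axes) from the group mean against that of Saa1 (horizontal axis) on the 96 arrays, females red and males blue. Points follow a line for Saa2 (r = 0.943) and show no trend for Elane (r = 0.057).

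Single arrays accordingly stood out across the set. In 23 of the 24 groups, 1 array was the highest for 9 or more of the 17 reactants, and in 12 groups for 14 or more. An array was highest for all 17 in 5 groups: replicate 4 of females at 15 on day 7, replicate 4 of females at 150 on day 2, replicate 3 of females at 150 on day 7, replicate 2 of males at 150 on day 7 and replicate 3 of males at 75 on day 2. All of these 12 groups, and the 5 among them, were treated. In the 4 control groups the array highest for most reactants was so for 8 to 11 of 17, against 9 to 17 in the 20 treated groups, a difference that was not tested. Of the differences at 150, the sign depended on 1 array for 17 of 36 members in females on day 2, 7 in females on day 7, 13 in males on day 2 and 15 in males on day 7. These counts were not made over all genes, and a difference near 0 changes sign easily. Leaving out replicate 3 at 150 in females on day 7 moved the difference more than leaving out any other array did for 24 of 36 members.

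Of the 15 member calls against dose 0, 6 held with each of the 8 arrays left out: S100a8 in females on day 2, Orm3 and Chil1 in females on day 7, Crp in males on day 2, and Orm3 and Crp in males on day 7. S100a8 in males on day 7 was called in 7 of 8 such fits, though not when only the 8 arrays compared were fitted (adjusted p = 0.228), and Crp in females on day 7 in 5. Orm2 and Elane in females on day 7, Orm3 in males on day 2 at 75 and 150, Crp in males on day 7 at 75, and Itih3 and Il1b in males on day 7 were called in 2 or 3 of 8. None of the 15 changed sign in these fits.

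**Figure D4:**
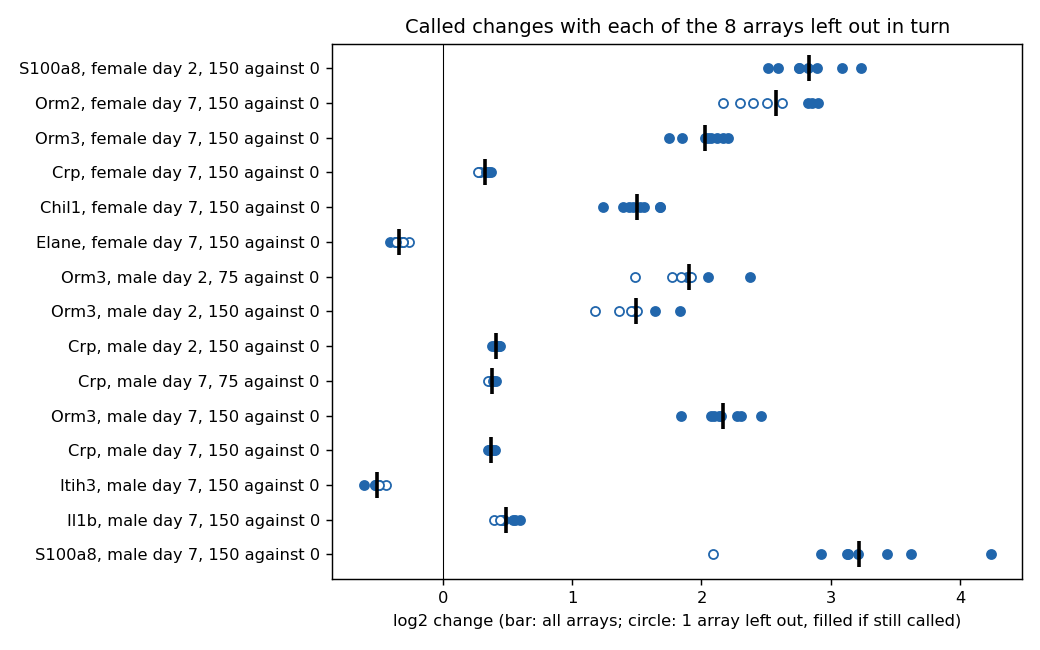
Log2 change against dose 0 of the 15 called differences with all arrays (bars) and with each of the 8 arrays left out in turn (circles, filled where still called by limma). No circle crosses 0, and S100a8 in males on day 7 has the widest range, 2.09 to 4.24.

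Of 9 cytokines and regulators, 0 were called at 150 in females on day 2, females on day 7 and males on day 2. Of all genes, 5.46%, 2.45% and 4.9% were called there. So few genes cannot show that the set differs from all genes. In males on day 7, where 3.04% of all genes were called, 1 of the 9 was, Il1b, the interleukin-1 beta gene. It read 6.39, 6.13, 6.33 and 5.90 at dose 0 and 6.75, 6.78, 6.36 and 6.83 at 150, and rose by 0.49 ± 0.14 (SE; limma adjusted p = 0.0363). Replicate 3 at 150 lay among the controls. The call was kept only without control replicate 1 or 3 or replicate 3 at 150, with changes of 0.40 to 0.60, and the slope of 0.08 (limma adjusted p = 0.0498) was called in 8 of 24 fits with 1 array left out and not without the doubted pair of arrays from day 2 (adjusted p = 0.0515), which enter only through the shared spread. That slope call ended without replicate 2 or 4 at 0, 1 or 3 at 0.15, 1, 2 or 4 at 1.5, 1, 3 or 4 at 15, 1, 3 or 4 at 75, or 1, 2 or 4 at 150. Il6 and Tnf were dim throughout, with all arrays between 2.59 and 3.54 for Il6 and between 4.32 and 5.07 for Tnf, so a change in them may not be measurable here.

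Socs3, which feeds back on interleukin-6 signalling, Cebpb, Cebpd and Stat3, which drive reactant genes, Nfkbia, the NF-kB inhibitor, and Cxcl1 were not called in any dose comparison. At 150 the values of the 9 genes ran from -0.35 for Socs3 to 0.41 for Cebpb in females on day 2 and from -0.29 for Cebpd to 0.22 for Socs3 in males on day 2. Cxcl1 stood at 1.26 in females on day 7 (limma adjusted p = 0.273), and at 0.60 without replicate 3 at 150. Its 3 probe sets gave 1.26, 1.49 and 0.35 there, so they differed in size. The regulators other than Il1b in males on day 7 lay between -0.11 and 0.17.

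Among 10 neutrophil and myeloid genes at 150, 1 rose in females on day 2, and 1 rose and 1 fell in females on day 7. In males, 0 were called on day 2 and 1 rose on day 7. Of all genes, 5.46%, 2.45%, 4.9% and 3.04% were called in the same order. The counts rest on few genes, and their difference from those shares was not tested. S100a8 encodes calgranulin A, which pairs with the S100a9 product as calprotectin. In females on day 2 it read 7.22, 6.29, 7.00 and 8.43 at dose 0 and 9.87, 10.79, 9.30 and 10.30 at 150. All treated arrays lay above the controls, and it rose by 2.83 ± 0.72 (SE; 7.12-fold; limma adjusted p = 0.00699), a call that held with any of the 8 arrays left out (2.52 to 3.23). S100a8 in males on day 7 read 7.46, 5.98, 6.22 and 5.36 at dose 0 and 12.87, 8.84, 6.42 and 9.77 at 150, so replicate 3 at 150 lay within the controls. It rose by 3.22 ± 0.72 (SE; 9.33-fold; limma adjusted p = 0.00282), but by 2.09, not called (adjusted p = 0.120), without replicate 1.

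The other groups had similar treated arrays with 1 low array each. Leaving that array out had to enlarge the difference at 150, so a call gained that way adds no support to it. S100a8 at 150 in females on day 7 read 9.64, 10.54, 8.90 and 7.39, against 6.14 to 7.69 at dose 0; the difference of 2.12 was not called (limma adjusted p = 0.111) but was without replicate 4 (2.70; adjusted p = 0.0472). In males on day 2 it read 10.11, 6.45, 9.02 and 10.52, against 6.53 to 7.50; the difference of 1.90 was not called (limma adjusted p = 0.130) but was without replicate 2 (2.75; adjusted p = 0.0183). S100a8 had called slopes in females on day 2, males on day 2 and males on day 7, at 0.48, 0.41 and 0.55 (limma adjusted p = 0.00507, 0.0264 and 0.00207). The first and last were called with any 1 of 24 arrays left out. For males on day 2 the call ended without control replicate 4, replicate 3 at 0.15 or at 75, or replicate 1 or 4 at 150, down to 0.34 (adjusted p = 0.118), and without the doubted pair the slope was 0.45 (adjusted p = 0.0141).

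S100a9 was not called in any comparison with dose 0 or slope, and its changes at 150 were -0.20, 0.61, -0.16 and 0.83 in females on day 2, females on day 7, males on day 2 and males on day 7 (limma adjusted p = 0.910, 0.674, 0.932 and 0.479). The probe sets of these genes have no common scale, so only shifts of their log2 difference are read. Each gene has a single probe set here, so other probe set rules could not check either reading. At dose 0 the log2 difference of S100a8 minus S100a9 lay between -1.07 and -0.11 on all 16 arrays. At 150 in females on day 2 it was 3.11, 3.21, 2.12 and 2.20, against -0.60 to -0.11 at dose 0, a change of 3.03. In females on day 7 it was 2.72, 1.99, -0.27 and -0.09 (change 1.51), in males on day 2 it was 1.70, -0.08, 1.57 and 3.37 (change 2.06), and in males on day 7 it was 4.86, -0.27, 0.10 and 2.34 (change 2.40). Thus 11 of the 16 arrays at 150 stood above 1.5, and the other 5 lay between -0.27 and 0.10. Two-sided exact permutation tests of 4 against 4 gave p = 0.0286 on day 2 in females and in males, the smallest they allow, and 0.0571 on day 7 in both; over the 20 comparisons of this difference the adjusted values were 0.114, 0.114, 0.163 and 0.163, so it did not pass. The same smallest p of 0.0286 was reached on day 7 at 75 in females and in males, with changes of 0.97 and 1.03, and at 0.15 in females on day 7 with a change of 0.21 (exact permutation tests, each adjusted to 0.114), so that p is not particular to 150. This difference was chosen after the values were seen.

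**Figure D5:**
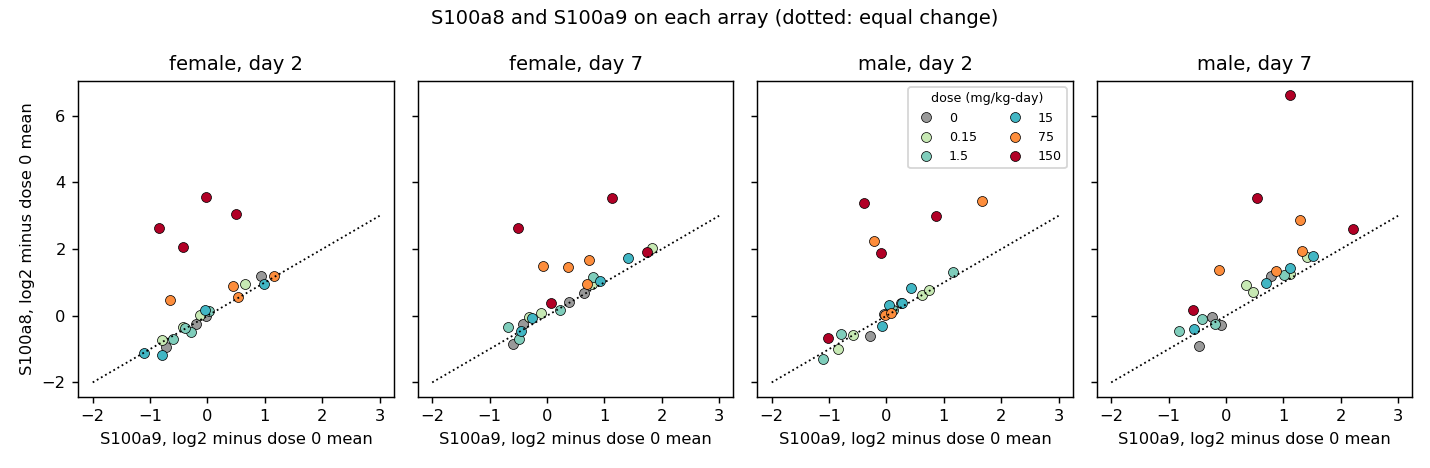
S100a8 (vertical axis) against S100a9 (horizontal axis) on each array, both as log2 level minus the dose 0 mean of the same sex and day, coloured by dose in mg/kg-day; the dotted line marks equal change. Arrays at low doses lie along the line, while most at 150 and some at 75 lie above it.

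The remaining neutrophil genes gave 1 other call at 150 besides Chil1. Elane, neutrophil elastase, read 5.44, 5.30, 5.0 and 5.11 at dose 0 and 4.93, 4.83, 4.78 and 4.94 at 150 in females on day 7, and fell by 0.34 on the log2 scale (limma adjusted p = 0.0458). At these levels, near or below the array medians, the call was kept only without control replicate 3 or 4, with values from -0.41 to -0.26; its slope of -0.06 (adjusted p = 0.0124) ended without control replicate 1 (adjusted p = 0.0780). The granule genes Ngp, Camp, Ltf and Mpo, the chemokine receptor gene Cxcr2 and Chil3, a chitinase-like gene of myeloid cells, were not called at any dose. Of 15 measured neutrophil markers outside the set, 0 were called by limma at 150 in any sex and day, and 12 had means below the median gene. At 150, 2.45% to 5.46% of all genes were called, so 0 of 15 is near that share. The mean log2 level of these 15 markers at dose 0 and at 150 ranged over arrays from 5.38 to 5.71 and from 5.40 to 5.66 in females on day 2, and from 5.33 to 5.46 and from 5.41 to 5.90 in females on day 7. In males the ranges were 5.36 to 5.54 and 5.34 to 5.60 on day 2, and 5.35 to 5.53 and 5.42 to 5.69 on day 7.

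Markers of several other cell types moved beside S100a8 and Il1b in males on day 7, where 3.04% of all genes were called. Of 14 Kupffer cell and macrophage markers 3 rose there, Mpeg1, Cd5l and Adgre1. In the other 3 comparisons at 150, where 2.45% to 5.46% of all genes were called, 0 of the 14 were. The mean log2 level of all 14 ranged over the arrays of males on day 7 from 8.38 to 9.09 at dose 0 and from 9.14 to 9.82 at 150, without overlap. It ranged from 8.80 to 10.02 and from 8.67 to 8.98 in males on day 2, from 9.26 to 9.68 and from 9.09 to 9.73 in females on day 2, and from 9.04 to 9.33 and from 9.24 to 9.82 in females on day 7. Of 5 genes listed as monocyte markers 1 rose in males on day 7, Plac8, by 0.90. The list includes F10, which rose by 0.23 in males on day 2. It also includes Chil3, so its mean is not independent of the members. In males on day 7, 3 of 7 stellate cell markers fell, Lrat at -0.88, Reln at -0.62 and Dcn at -0.46. Of 8 markers of sinusoidal endothelium 1 fell there, Stab2 at -0.49. Over the same arrays, the mean log2 level at dose 0 and at 150 ranged from 7.60 to 7.92 and from 7.91 to 8.41 for the monocyte list, from 8.95 to 9.22 and from 8.57 to 8.92 for the stellate list and from 8.58 to 8.998 and from 8.69 to 8.82 for the sinusoidal list. Sinusoidal markers also fell at 150 on day 2, Stab2 at -0.53 and Clec4g at -0.29 in females, and Clec4g at -0.36 in males. Their fall was thus not particular to males on day 7. In females on day 7, 0 of the sinusoidal markers were called. Of the 7 stellate markers, 0 were called at 150 outside males on day 7. The part of the markers of these cell types in the results for S100a8 and Il1b was not tested.

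Chil1 was the member whose response differed between the sexes and days. The gene, at chr1:134182156-134190031, encodes a secreted chitinase-like protein made by macrophages, neutrophils and other cells. Chil1 in females on day 7 read 4.73, 4.40, 4.49 and 4.64 at dose 0, 4.94, 4.81, 5.79 and 4.43 at 75, and 6.38, 5.51, 6.83 and 5.52 at 150. At 150 every array lay above every control; Chil1 rose by 1.50 ± 0.17 (SE; 2.83-fold; limma adjusted p = 3.74e-10), with 1.24 to 1.68 when 1 array was left out. At 150 in females on day 2 it lay between 4.54 and 4.67, in males on day 2 between 4.34 and 4.92 and in males on day 7 between 4.55 and 4.70, changes of 0.03, 0.06 and 0.07 that were not called (limma adjusted p = 0.958, 0.929 and 0.895). Tested directly, its day 7 response was 1.42 lower on the log2 scale in males than in females (-1.42 ± 0.24, SE; limma adjusted p = 0.000135). In females it was 1.47 higher on day 7 than on day 2 (limma adjusted p = 7.43e-05). These were the 2 member calls over the 4 tests of differences between responses at 150. In these, 0.0055% of all genes were called for the sexes on day 2, 0.0879% for the sexes on day 7, 0.874% for the days in females and 0.132% for the days in males. Orm3, Crp and S100a8 were not called in these 4 tests; for S100a8 the difference of the sexes was -0.93 ± 1.02 on day 2 and 1.10 ± 1.02 on day 7 (SE), which does not show equal responses.

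Without PB, Orm3 was lower in males. At dose 0 it read 6.46 to 7.29 in males and 8.33 to 9.09 in females on day 2, a difference of -1.79 ± 0.44 (SE; 3.47-fold lower; limma adjusted p = 0.0100), where 2.06% of all genes were called. On day 7 it read 6.31 to 7.01 in males and 7.59 to 8.55 in females, 2.91-fold lower (limma adjusted p = 0.0179), where 6.71% were called. The groups did not overlap on either day. The day 2 call ended without control replicate 4 of males (adjusted p up to 0.0575), and the day 7 call without replicate 3 of females or of males (up to 0.0715). At 150 on day 7, male Orm3 levels of 7.88 to 9.73 overlapped those of untreated females. Mpo, myeloperoxidase, was 0.44 higher in males on day 7 (limma adjusted p = 0.0281), but 0.20 (adjusted p = 0.408) without male control replicate 1, and the call also ended without female control replicate 2 or 4. The other members were not called on either day, with differences in males of up to -2.47 for Lcn2 and -2.07 for Orm2 on day 2 (limma adjusted p = 0.115 and 0.140) and 1.54 for Saa1 on day 7 (adjusted p = 0.103).

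In each comparison at 150, most other genes of these pathways were not called. For the further acute phase list and the interleukin-1, TNF and NF-kB list, the share called was above that of all genes each time. These shares rest on few genes, and the excess was not tested. Among the genes named, Itih2 fell and Ikbkg rose in all 4 comparisons at 150. These lists, like the 36 members, were drawn up by name, with earlier results of these data known. The counts stand against 5.46%, 2.45%, 4.9% and 3.04% of all genes called at 150 in females on day 2, females on day 7, males on day 2 and males on day 7. Of 19 further acute phase genes measured, 0 rose at 150 in any sex and day, and 3, 1, 2 and 2 fell in females on day 2, females on day 7, males on day 2 and males on day 7. Itih2, another inter-alpha-trypsin inhibitor heavy chain, fell in all 4, by 0.41, 0.52, 0.38 and 0.49 on the log2 scale (limma adjusted p = 8.12e-05, 1.42e-06, 0.000428 and 5.58e-06). Itih1 fell by 0.29 in females on day 2 and 0.23 in males on day 7, and Cfb, complement factor B, by 0.27 in females on day 2 and 0.26 in males on day 2. Of 6 genes known to fall in the acute phase, Serpina6, which encodes the corticosteroid carrier, rose in females on day 7 and in males on both days (1.55-fold, 1.67-fold and 1.69-fold). Apoa1 fell by 0.15 in females on day 7 and Ahsg, fetuin-A, by 0.21 in males on day 2.

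Of 17 genes of the interleukin-6 and STAT3 pathway, 1 was lower in each comparison at 150 and 0 higher, a share near that of all genes. These were Stat5b in females on day 2 (-0.43), the interleukin-22 receptor gene Il22ra1 in females on day 7 (-0.50), the kinase gene Jak2 in males on day 2 (-0.24) and Il6ra, the interleukin-6 receptor gene, in males on day 7 (-1.12; limma adjusted p = 0.00217). Of 26 genes of the interleukin-1, TNF and NF-kB pathway, 1, 3, 2 and 3 were higher and 1, 0, 1 and 0 lower in the same order. Ikbkg, which encodes the NF-kB regulator NEMO, was higher in all 4, by 0.46, 0.38, 0.34 and 0.40. Cxcl9, a chemokine induced by interferon, rose by 1.37 in females on day 7 and 1.54 in males on day 7, Tnfaip3, an NF-kB feedback inhibitor, by 0.75 in males on day 7, and Tnfaip2, named after its values were seen, by 0.56 in females on day 7 and 0.44 in males on day 2. Il1rap, a co-receptor for interleukin-1, was the gene lower on day 2, at -0.65 in females and -0.49 in males. The median change of all 4 lists at 150 lay between -0.20 and 0.15.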

How the data were processed

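Liver RNA from 96 samples was hybridised to 1-colour Affymetrix arrays of 45101 probe sets after amplification and biotin labelling, per the labels' protocols. The deposited values are on a log2 scale per probe set and array, and how the authors normalized them is not given here in any source. No further normalization was applied. Of the probe sets, 64 controls, 9160 with no gene symbol and 932 with several were left out. Of a gene's probe sets, the brightest by its 96-array mean stood for each of 18193 genes, and 8 members had more than 1.

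A model with 24 group means was fitted with limma 3.58.1 in R 4.3.3 to all arrays, with 20 comparisons of a dose with dose 0, 4 slopes over dose rank, 4 tests of differences between responses at 150 and 2 of the sexes at dose 0. Each was adjusted by Benjamini-Hochberg over all genes, with a threshold of 0.05. A fold is 2 to the power of the log2 difference, which compression of the arrays can understate. The script was tested on simulated data. The genes named are the members and, for each pathway list, up to 4 genes with the smallest adjusted p among those called at 150. The members and lists were chosen with earlier results of these data known, and the difference of S100a8 and S100a9 after its values were seen. Alternatives were each array left out in turn, array quality weights, a trended prior, a repeat of quantile normalization, subtracted array medians, differences of group medians, a filter on dim genes, fits to fewer arrays, the replicate number as a block and other probe set rules. The pair of arrays that went against its labels was left out as an alternative chosen after seeing the data. Promoters came from RefSeq for GRCm38.p6, with 33 of 36 members matched.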

Additional observations from a re-analysis of the deposited data

Results flagged for a closer look

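Among 28 groups of 4 arrays tested for an outlying array by Dixon's ratio at its 95% critical value, 2 had one, where chance flags about 1 in 20 groups. Crp at dose 0 in males on day 7 had replicate 3 at 12.87, above 3 arrays between 12.75 and 12.76. Il1b at 150 in males on day 7 had replicate 3 at 6.36, below 3 arrays between 6.75 and 6.83 and within the range of the controls.

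Chil1 differed in its response between groups. Its change at 150 on day 7 was -1.42 in males relative to females (limma adjusted p = 0.000135), and in females it was 1.47 higher on day 7 than on day 2 (adjusted p = 7.43e-05). Both differences were called with each of the 16 arrays they use left out in turn.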

How the results depend on the processing

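No called change reversed its direction under any alternative run. With dim genes left out, the member calls for differences between responses went from 2 to 0 and those of females on day 7 at 150 from 5 to 3, because Chil1 and Elane were no longer tested. With the 24 arrays of the same sex and day, calls of females on day 7 at 150 were 2, and with the 8 arrays compared those of males on day 7 at 150 were 1 in place of 5; these fits use fewer samples. With array quality weights, females on day 2 at 150 had 2 calls in place of 1, and the cause was not tested. With 1 array left out, calls ranged from 12 to 16 over the 20 dose comparisons (15 with all arrays), from 14 to 22 over slopes (18), from 2 to 3 over differences between responses, from 2 to 3 over the sexes, and at 150 from 1 to 2 in females on day 2, 2 to 5 in females on day 7, 1 to 3 in males on day 2 and 2 to 5 in males on day 7.

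Of the 33 called gene results that could be fitted to the 24 arrays, 11 lost their call, among them both of Orm3 in males on day 2 and that of Orm2, and of the 15 fitted to 8 arrays 8 did, among them S100a8, Itih3 and Crp at 150 in males on day 7. Subtracting array medians lost 4, of Crp, Elane and Il1b. With the replicate number as a replicate block, the dose comparisons kept 15 calls and the slopes 18, and all 38 called gene results were kept. Same-numbered arrays at 0 and 150 correlated above 0.1 in 2 of 16 pairs (-0.161 to 0.139). Differently numbered arrays were not compared, so this does not settle whether the numbers pair the samples. Fits to 24 or 8 arrays were not run for comparisons across sexes or days, nor those to 8 for slopes. Signal near background limits Il6, Tnf, Chil1, Elane and the granule genes.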
